A study of Mus musculus with 4 samples.

Results

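The genes described here are Fos, Fosb, Fosl1, Jun, Junb, Jund, Egr1, Atf3, Myc and Klf6, a set of AP-1, Myc and other immediate early genes taken by name with every probe set annotated to them. They had 15 of the 45037 probe sets on 4 Affymetrix mouse arrays, and 9 of the 10 genes were among the 11874 genes tested. By its title the series concerns GATA6 and the expression of BMP genes. The arrays measured RNA from organoids, 3D epithelial cultures, of mouse colon adenomas on a C57BL/6 background. A group of 2 arrays is labelled Gata6 null/Apc null, for cultures with the genotype VillinCreERT2 Gata6 fl/fl Apc fl/fl. The other group of 2 is labelled Apc null, for VillinCreERT2 Gata6 +/+ Apc fl/fl. Both groups thus carried floxed Apc, the Wnt pathway suppressor lost in most intestinal adenomas, and a tamoxifen-activated Cre driven by the Villin promoter of gut epithelium. GATA6 is a GATA family transcription factor that the gut epithelium needs. All cultures were grown for 7 days in medium with EGF at 50 ng/ml and, at passaging, a Rock inhibitor. The labels name a batch A and a batch B, with 1 array of each genotype in both, and an array is named here by its group and batch letter, as in Apc null A. Values of a group are given in the order A, B. All differences are given as Gata6 null/Apc null minus Apc null on the log2 scale of the deposited values.

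Immediate early genes are switched on by growth factors and stress without new protein synthesis, largely through ERK and other MAP kinases acting on serum response factor, ETS and CREB proteins at their promoters. Fos proteins pair only with partners of other families, mainly Jun proteins, and the pair is the transcription factor AP-1, whereas Jun proteins also pair with each other. Myc drives growth and ribosome production and is a textbook target of Wnt signalling in intestinal adenomas. Jun is also described as a Wnt target there.

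The labels were first set against the array values. Gata6 itself gave 9.37 and 9.40 in the Gata6 null/Apc null arrays, against 8.89 and 8.61 in Apc null, at its brighter probe set. Its other probe set gave 9.11 and 9.21 against 8.83 and 8.65, so both were higher without overlap, by 0.64 and 0.42. Neither passed with genotype only. With the batch as a block the limma adjusted p-values over all probe sets were 0.0410 and 0.178. Whether either probe set lies in the floxed part is unknown, so they check nothing, and every direction rests on the labels. All 10 colon epithelium markers were above the filter level of 4.45 log2 units, the 40th percentile of probe set means. Of these markers, 10 of 10 had a negative difference, beside 6632 of all 11874 genes tested. Their median was -0.23, against -0.03 over all genes tested. Their log2 values summed to 100.2 and 99.2 in the Gata6 null/Apc null arrays and to 104.0 and 102.6 in the Apc null arrays. The 10 differences were uneven, from -1.57 to -0.01. Cdx2, the intestinal homeobox factor, had the largest of these differences (-1.57, SE 0.34, limma adjusted p = 0.228, and 0.00545 with the batch as a block). Above the filter level were 2 of 7 fibroblast markers, 2 of 5 endothelial markers and 3 of 6 immune markers (Cd14, Cd68 and Lyz1). The log2 values of the immune markers summed to 26.5 and 28.8 in the Gata6 null/Apc null arrays, against 29.0 and 30.8 in the Apc null arrays. The defining leukocyte gene Ptprc read 3.07 to 3.25 on the 4 arrays, near the array floor, and Cd3e and Itgam read 3.33 to 3.71. In the same order of groups, Cd14 read 6.06 and 6.66 against 7.36 and 7.28, and Lyz1 read 5.03 and 5.01 against 5.57 and 5.63. Cd68 read 4.94 and 7.23 against 5.92 and 7.57. Whether Cd14, Cd68 and Lyz1 came from immune cells was not tested. The part of these markers in the results below was not tested. In RNA from whole cultures, fewer cells of a type and less RNA per cell cannot be told apart.

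The genes of the set differed in both directions in the Gata6 null/Apc null arrays. Jun was higher, at both of its probe sets, while Fos, Klf6 and Myc were lower. The brighter Jun probe set was 1.83-fold higher, whereas Fos stood at 39.0%, Klf6 at 65.2% and Myc at 66.4% of the Apc null level. Fosb, Fosl1 and Egr1 also read lower on both Gata6 null/Apc null arrays than on either Apc null array, and Junb, Jund and Atf3 overlapped between the groups.

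With genotype as the single term, 0 of the 9 genes tested passed a limma adjusted p of 0.05, which 0.648% of all 11874 genes did. Before adjustment 4 of the 9 had a limma p under 0.05 (Jun, Klf6, Myc and Fos), against 7.97% of all genes. The labels give a batch letter to 1 array of each genotype, and with this pairing as a replicate block 4 of the 9 passed. Jun passed as higher, a call made for 3.91% of all genes, and Fos, Klf6 and Myc as lower, a call made for 2.97%. That fit leaves 1 residual degree of freedom, so its spread comes mostly from other genes, and these 4 calls exist only with the block. The median difference of the 9 genes was -0.44, and within the batches it was -0.51 (A) and -0.43 (B).

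Counted by probe set, 13 of the 15 had a negative difference. The groups did not overlap at 11 of them, 9 lower and 2 higher in the Gata6 null/Apc null arrays. Over all probe sets, 16.1% were lower without overlap and 12.5% were higher without overlap. In the fit over all 45037 probe sets, 0 of the 15 passed, against 0.129% of all, and 7 had an unadjusted limma p under 0.05, against 4.84% of all. With the batch as a block 5 of the 15 passed, against 3.24% of all: both Jun probe sets, the Fos and Myc probe sets and 1 of 3 for Klf6. Probe sets of the same gene share a transcript and are not separate evidence.

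**Figure D1:**
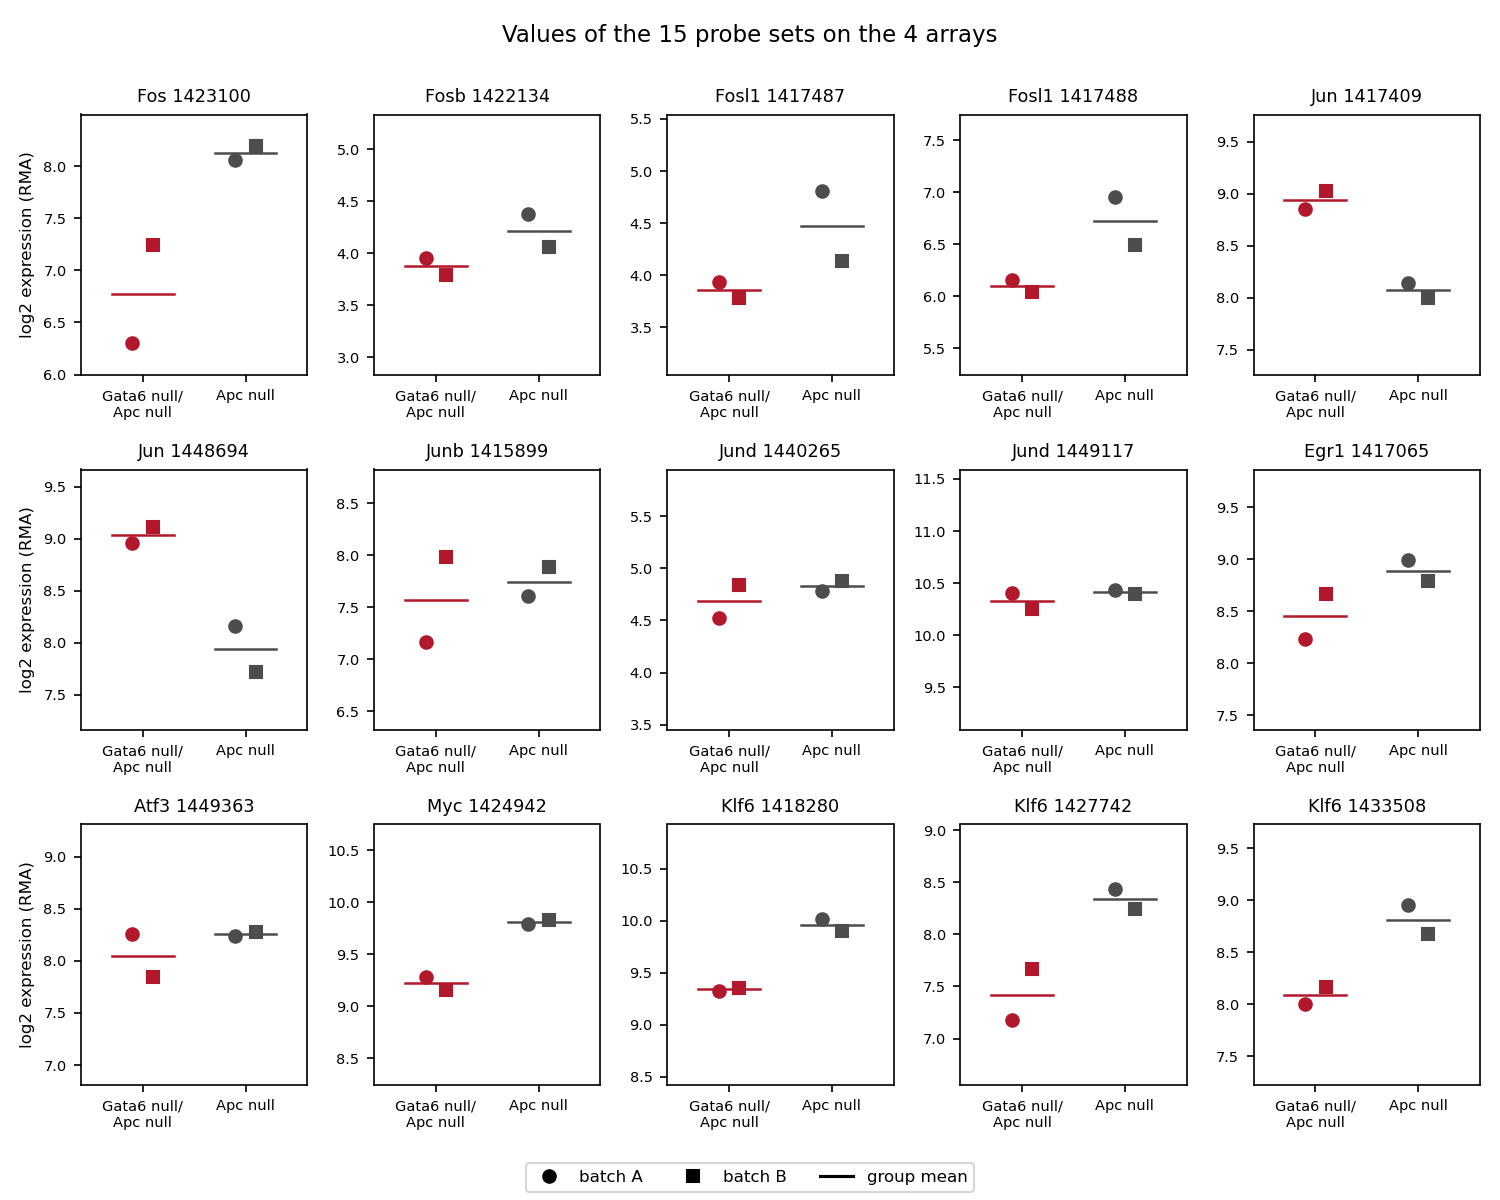
Log2 expression of the 15 probe sets of the 10 genes on each array, with Gata6 null/Apc null at left and Apc null at right of each panel, circles for batch A, squares for batch B and a line at the group mean. All panels span the same height in log2 units, and the groups are apart at both Jun probe sets, upwards, and at Fos, Fosb, Fosl1, Egr1, Myc and all 3 Klf6 probe sets, downwards.

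RefSeq promoter windows of the GRCm38.p6 build were matched by symbol for 7 of the 10 genes: Fos, Fosb, Jun, Junb, Jund, Atf3 and Klf6. The 250 bases before the annotated start are printed for the 3 genes with a window whose call was made with the block, to show what the gene that was higher and the 2 that were lower have at their starts. Capitals mark TGACNTCA and GATAA in Jun, TGACG and TATAAA in Fos, and TGACNTCA and CACGTG in Klf6. The windows lie at chr4:95052223-95052472 on the minus strand for Jun, chr12:85473640-85473889 on the plus strand for Fos and chr13:5861239-5861488 on the plus strand for Klf6.
Jun: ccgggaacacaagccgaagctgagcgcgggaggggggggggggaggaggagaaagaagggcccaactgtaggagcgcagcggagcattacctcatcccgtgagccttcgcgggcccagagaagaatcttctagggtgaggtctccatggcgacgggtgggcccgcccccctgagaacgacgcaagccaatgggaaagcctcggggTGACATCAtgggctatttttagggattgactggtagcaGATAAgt
Fos: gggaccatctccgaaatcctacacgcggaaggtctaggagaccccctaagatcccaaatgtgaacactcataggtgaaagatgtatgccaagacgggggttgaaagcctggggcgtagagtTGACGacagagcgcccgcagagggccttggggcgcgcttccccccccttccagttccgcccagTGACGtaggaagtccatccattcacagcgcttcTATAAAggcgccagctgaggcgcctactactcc
Klf6: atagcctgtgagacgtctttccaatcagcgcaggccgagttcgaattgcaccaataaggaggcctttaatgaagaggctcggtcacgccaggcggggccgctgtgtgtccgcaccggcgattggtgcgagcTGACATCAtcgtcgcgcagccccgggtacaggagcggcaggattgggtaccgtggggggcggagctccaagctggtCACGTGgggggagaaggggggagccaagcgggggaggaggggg

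Jun and Klf6, which differed in opposite directions, both held TGACATCA, a variant of the AP-1 and CREB element, at bases -45 to -38 in Jun and -119 to -112 in Klf6, counted back from the start. Of the 7 windows, 2 matched TGACNTCA on either strand, against 7.49% of all 32851 windows of this length. TGACG, the core of the CREB element, was found in 4 of the 7 (Fos, Fosb, Junb and Atf3) and in 17.8% of all windows, and lay at -129 to -125 and -66 to -62 in Fos. It overlaps TGACNTCA only where N is G. GATAA, the core of the motif bound by GATA factors, was found in 2 of the 7 (Jun, at -7 to -3, and Atf3) and in 22.6% of all windows. CACGTG, the E-box bound by Myc with Max, was found in Klf6 alone of the 7 (6.02% of all windows), and TATAAA in Fos alone (12.4%). TGANTCA and the CArG box of serum response factor matched 0 of the 7, against 6.75% and 1.47% of all windows. A match is a description of the letters, and the serum response element of Fos is known to lie further upstream than this window.

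None of the Jun genes passed with genotype only. Jun passed with the batch as a block, Junb and Jund did not, and the difference between Jun and its paralogues was not tested. Jun, which encodes the AP-1 subunit with strong transactivation and growth-promoting activity, read 8.86 and 9.03 in the Gata6 null/Apc null arrays, against 8.15 and 7.99 in the Apc null arrays (probe set 1417409_PM_at). Both Gata6 null/Apc null arrays were above both Apc null arrays, by more than the spread within either group. The difference was 0.87 (SE 0.20, 95% interval 0.34 to 1.40, adjusted p = 0.272), and with the batch as a block the interval was 0.52 to 1.22 (adjusted p = 0.0215). The other Jun probe set, 1448694_PM_at, read 8.96 and 9.11 in the Gata6 null/Apc null arrays, against 8.16 and 7.72 in the Apc null arrays, again without overlap. It was 2.14-fold higher, with a difference of 1.10 (SE 0.25, adjusted p = 0.434 over all probe sets, and 0.0148 with the batch as a block). Of the 11874 genes, 422 had a difference at least as high as that of Jun. With each array left out in turn its difference lay between 0.79 and 0.96.

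Junb, often an antagonist of Jun in growth control, read 7.16 and 7.98 in the Gata6 null/Apc null arrays, against 7.60 and 7.89 in the Apc null arrays. The groups overlapped, since the Gata6 null/Apc null pair held both the lowest and the highest value. Its difference was -0.17 with an interval of -1.09 to 0.75 (adjusted p = 1.00), which is too wide to tell a change from none. Jund, the member of the family with the steadiest expression in most cells, read 10.41 and 10.25 in the Gata6 null/Apc null arrays, against 10.43 and 10.39 in the Apc null arrays, at its brighter probe set. Its difference of -0.08 had an interval of -0.40 to 0.24 (adjusted p = 1.00), so a change as large as that of the Jun probe set lies outside the interval. The other Jund probe set was dim, at 4.52 and 4.84 in the Gata6 null/Apc null arrays, against 4.79 and 4.88 in the Apc null arrays, with a difference of -0.15.

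All 3 Fos genes of the set read lower in the Gata6 null/Apc null arrays, and among them Fos differed most. Fosl2, a Fos gene outside the set, read 9.19 and 9.09 in the Gata6 null/Apc null arrays, against 9.12 and 9.19 in the Apc null arrays. Its groups overlapped, with a difference of -0.0082. Fos, the classic immediate early gene and partner of Jun in AP-1, read 6.30 and 7.25 in the Gata6 null/Apc null arrays, against 8.06 and 8.20 in the Apc null arrays. The Apc null arrays were close together, and the Gata6 null/Apc null arrays were almost 1 log2 unit apart. The means were 6.77 ± 0.67 and 8.13 ± 0.09 (SD, n = 2 each), a difference of -1.36 (SE 0.38, 95% interval -2.35 to -0.37, adjusted p = 0.374). With the batch as a block the interval was -1.92 to -0.79 (adjusted p = 0.0245). Within batch A it was -1.77, and -0.95 within batch B. Leaving out Gata6 null/Apc null A gave -0.88, so that array sets much of its size. Of the 11874 genes, 122 had a difference at least as low.

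Fosl1, which encodes the Fos-related protein FRA1 that is raised by sustained ERK signalling, read 6.15 and 6.04 in the Gata6 null/Apc null arrays, against 6.95 and 6.49 in the Apc null arrays. The groups did not overlap, but the Apc null arrays lay further apart than the gap between the groups. The difference was -0.62 (SE 0.27, interval -1.32 to 0.07, adjusted p = 0.717, and 0.141 with the batch as a block). Its other probe set, near the floor, read 3.93 and 3.78 in the Gata6 null/Apc null arrays, against 4.80 and 4.13 in the Apc null arrays. Fosb, a Fos paralogue best known from neurons, was the 1 gene left out by the filter, since its single probe set read 3.95 and 3.79 in the Gata6 null/Apc null arrays, against 4.37 and 4.05 in the Apc null arrays. At that level RMA compresses differences, and the value of -0.34 (SE 0.16, adjusted p = 1.00 over all probe sets, and 0.342 with the batch as a block) says little about Fosb.

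**Figure D2:**
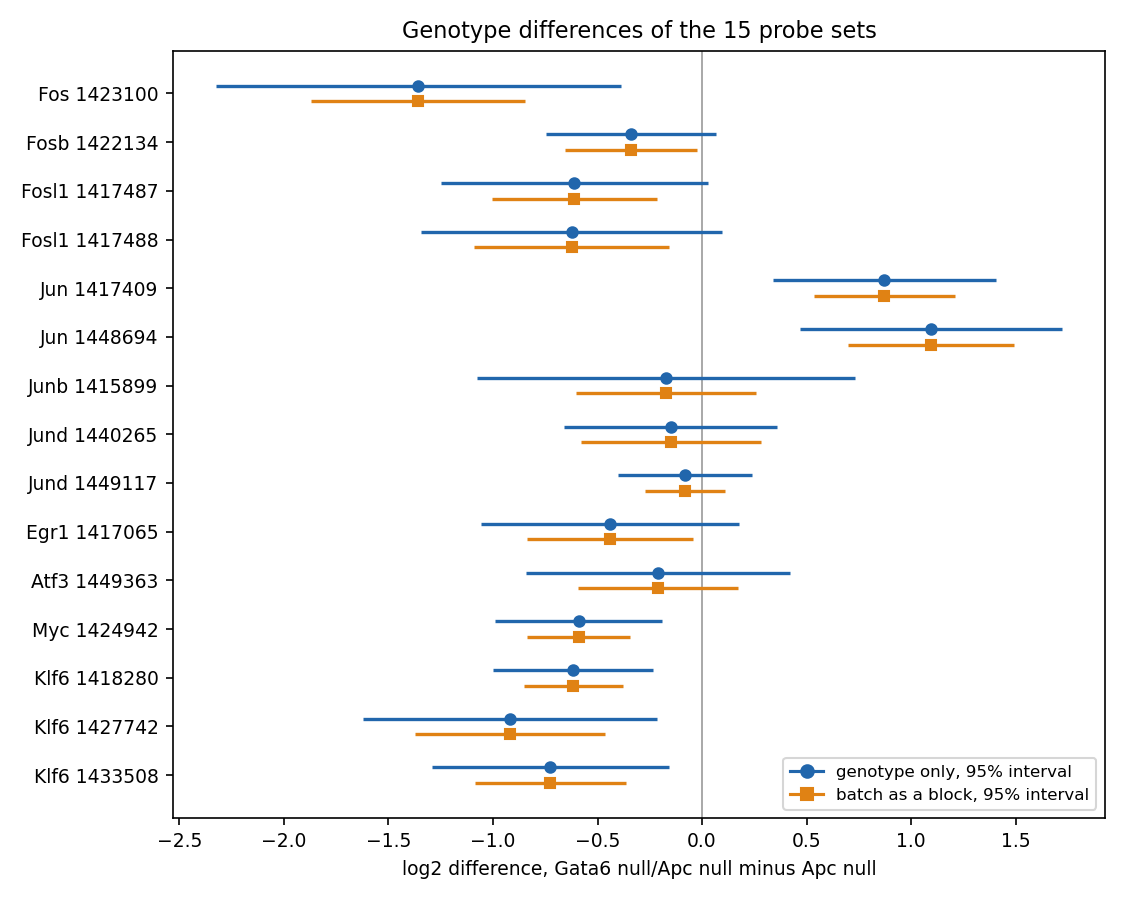
Log2 difference, Gata6 null/Apc null minus Apc null, of the 15 probe sets in the fit over all probe sets, with 95% intervals from the fit with genotype only (blue) and with the batch as a block (orange). The 2 Jun probe sets lie at 0.87 and 1.10, and the other 13 lie below 0, from -0.08 for the brighter Jund probe set to -1.36 for Fos.

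Klf6 was lower at all 3 of its probe sets. It encodes a zinc finger factor of the Krüppel-like family that is induced early after injury or growth stimulation. The brightest probe set read 9.33 and 9.35 in the Gata6 null/Apc null arrays, against 10.02 and 9.90 in the Apc null arrays. The gap between the groups was several times the spread within either of them. The difference was -0.62 (SE 0.15, adjusted p = 0.284), and with the batch as a block the interval was -0.86 to -0.38 (adjusted p = 0.0200). Probe set 1427742_PM_a_at read 7.18 and 7.67 in the Gata6 null/Apc null arrays, against 8.44 and 8.24 in the Apc null arrays. Probe set 1433508_PM_at read 8.00 and 8.17 in the Gata6 null/Apc null arrays, against 8.95 and 8.68 in the Apc null arrays. Their differences were -0.92 and -0.73, with adjusted p-values over all probe sets of 0.0515 and 0.0531 with the batch as a block, just outside the threshold.

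Egr1 and Atf3 did not pass in either fit. Egr1, an early zinc finger factor downstream of ERK, read 8.23 and 8.67 in the Gata6 null/Apc null arrays, against 8.99 and 8.79 in the Apc null arrays. Its groups did not overlap, but the gap was narrow within batch B, at -0.12, beside -0.76 within batch A. The difference was -0.44 (SE 0.24, interval -1.06 to 0.18, adjusted p = 0.888, and 0.243 with the batch as a block). Atf3, a stress-induced ATF factor that can pair with Jun, read 8.25 and 7.84 in the Gata6 null/Apc null arrays, against 8.24 and 8.28 in the Apc null arrays. Gata6 null/Apc null B stood apart below the other 3 arrays. Its difference was -0.21 (interval -0.84 to 0.42, adjusted p = 1.00).

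Myc was lower in both batches, -0.51 in A and -0.67 in B. Its probe set read 9.28 and 9.16 in the Gata6 null/Apc null arrays, against 9.79 and 9.83 in the Apc null arrays. The arrays of each group lay close together, and the groups were far apart relative to that spread. The difference was -0.59 (SE 0.15, interval -0.99 to -0.19, adjusted p = 0.329), and with the batch as a block the interval was -0.84 to -0.34 (adjusted p = 0.0260). With each array left out in turn it lay between -0.65 and -0.53.

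Between the batches themselves 0 of the 9 genes passed (batch B minus batch A, with genotype in the fit), while 16.6% of all genes tested did. At an unadjusted limma p under 0.05 it was 1 of the 9, Junb, against 33.6% of all genes. Junb and Fos had the largest batch differences, 0.55 (SE 0.19, adjusted p = 0.101) and 0.54 (SE 0.23, adjusted p = 0.164), and both came mainly from the Gata6 null/Apc null arrays, which were 0.82 and 0.95 higher in batch B than in batch A. In the Apc null arrays the same steps were 0.28 and 0.13. Jun, Myc and Klf6 differed between batches by 0.01, -0.04 and -0.05. The genotype difference had the same sign in both batches at 13 of the 15 probe sets, the exceptions being Junb and Atf3. Over all probe sets, dim ones included, the share was 55.6%. Counted by gene it was 7 of the 9, against 7525 of the 11874 genes tested, and whether these shares differ was not tested.

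**Figure D3:**
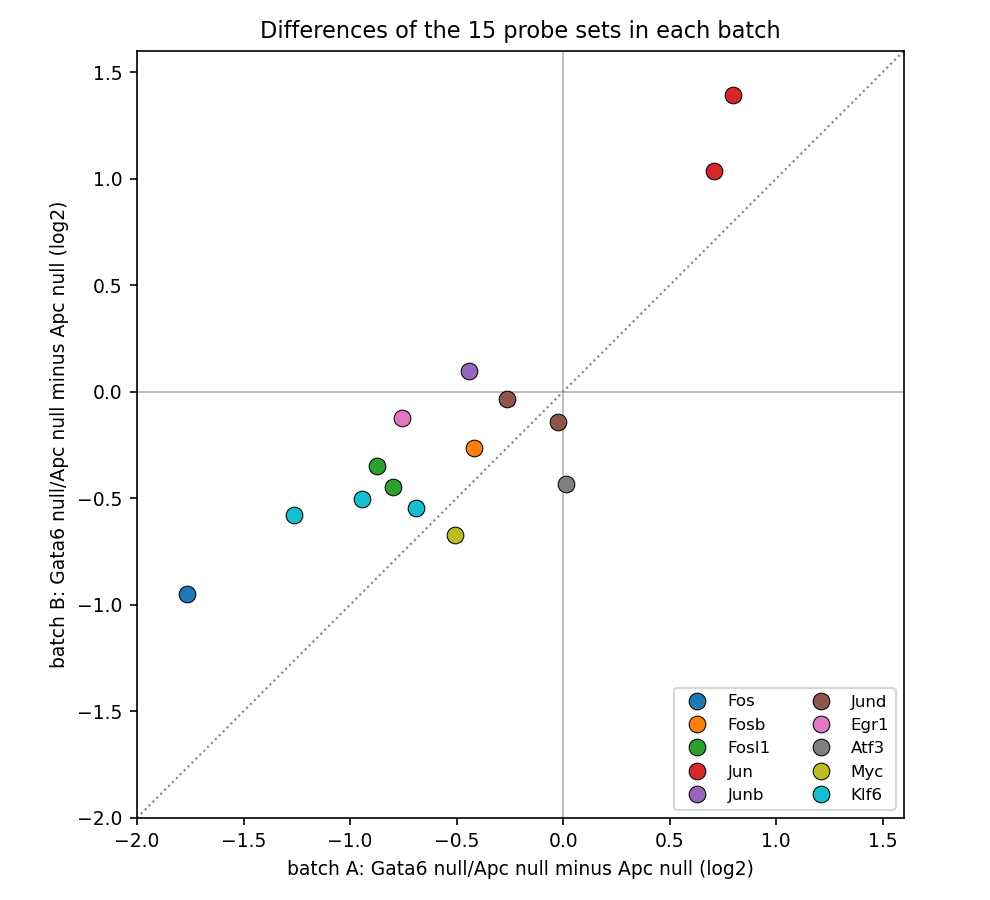
Genotype difference of each of the 15 probe sets within batch A (x axis) and within batch B (y axis), in log2 units, coloured by gene, with the line of equal differences dotted. Both Jun probe sets lie in the upper right, at 0.71 and 1.03 and at 0.80 and 1.39, Fos lies lowest on both axes, at -1.77 and -0.95, and Junb and Atf3 lie across a zero line.

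Genes around this set were described from 9 lists: other AP-1 partners, other immediate early genes, ERK feedback genes, serum response factors and kinases, AP-1 target genes, MYC network factors, MYC target genes, other KLF factors, and other ATF factors with stress targets. Of 110 genes tested from them, 0 passed with genotype only, and 8 had an unadjusted limma p under 0.05, against 7.97% of all genes. With the batch as a block 9 passed, against 6.88% of all genes in either direction, so both counts were near the share of all genes and are no result about the lists. With arrays centred on their medians 1 passed with genotype only, Etv5. Of the 9, 3 were higher (Etv5, Fn1 and Mafg) and 6 lower (Ccn2, Trib3, Chac1, Hbegf, Plaur and Tfrc). Mafg, Hbegf, Fn1 and Plaur were named after their values were seen, as was Fosl2 above.

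Of 17 immediate early genes outside the set, 14 had a negative difference, with a median of -0.07, against -0.03 over all genes, of which 6632 had a negative difference. Ccn2, which encodes connective tissue growth factor and is a standard target of YAP and serum response factor, differed most. It read 4.72 and 6.26 in the Gata6 null/Apc null arrays, against 7.00 and 8.58 in the Apc null arrays. The groups did not overlap although batch B was higher in both, and the within-batch differences of -2.28 and -2.32 were nearly equal. The overall difference was -2.30 (SE 0.75, adjusted p = 0.480, and 0.00183 with the batch as a block). Leaving out Gata6 null/Apc null A gave -1.53, and leaving out Apc null B gave -1.51. Nr4a1, an orphan nuclear receptor, came next by p with -0.36 (adjusted p = 0.635). Among the 7 other AP-1 partners tested, Jdp2, a repressor that pairs with Jun, differed by -0.31 (adjusted p = 0.842) and Batf2 by -0.29 (adjusted p = 1.00). Mafg, a small Maf protein, differed by 0.54 (adjusted p = 1.00, and 0.0250 with the batch as a block). Its value changed with the array left out, to 0.08 for Gata6 null/Apc null B, 0.18 for Apc null A, 0.90 for Apc null B and 1.00 for Gata6 null/Apc null A. Mafg was 0.82 higher in batch B than in batch A, a step that enters these values once 1 array is left out. Within the batches it differed by 0.44 (A) and 0.64 (B).

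The ERK feedback genes had 7 positive and 6 negative differences among 13 tested and a median of 0.02. The ETS factor gene Etv5 differed most, at 8.54 and 8.53 in the Gata6 null/Apc null arrays, against 6.10 and 5.40 in the Apc null arrays. The level was 6.91-fold higher (log2 difference 2.79, SE 0.32), with an adjusted p of 0.0555, and 0.00185 with the batch as a block. Its close relative Etv4 did not pass in either fit, with -1.06 (SE 0.60, adjusted p = 0.913, and 0.0642 with the batch as a block). Its value was -0.28 when Apc null B was left out, -0.69 when Gata6 null/Apc null A was and -1.84 when Apc null A was. Within the batches Etv4 differed by -0.65 (A) and -1.47 (B). The serum response factors and kinases had a median of 0.00 over 12 genes. The lowest p belonged to Rps6ka3, an ERK-activated kinase, with 0.34 (adjusted p = 0.809), and Mrtfa, a coactivator of serum response factor, with -0.41 (adjusted p = 0.948).

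AP-1 target genes had a median of -0.42 over 8 tested, with 6 negative, beside 6632 negative among all 11874 genes tested. The leading members by p were Timp1, a metalloprotease inhibitor, with 0.56 (SE 0.13, adjusted p = 0.277), and Plau, the urokinase gene, with -0.63 (SE 0.18, adjusted p = 0.403). Timp1 read 4.88 and 4.98 in the Gata6 null/Apc null arrays, against 4.37 and 4.37 in the Apc null arrays. It passed the filter level of 4.45 only through the group where it was high. In the same order of groups, Plau read 4.60 and 4.46 against 4.99 and 5.33. Both genes were dim, and their values say little. With the batch as a block, 3 of the 8 passed, beside the 6.88% of all genes. Hbegf, an EGF receptor ligand, differed by -1.15 (adjusted p = 0.509 with genotype only, and 0.0236 with the block). Plaur, the urokinase receptor, differed by -0.80 (0.997 and 0.0359), and Fn1, fibronectin, by 1.25 (0.828 and 0.0271). The size of these values changed with single arrays. Hbegf was at -0.66 when Gata6 null/Apc null A was left out. Fn1 was at 0.43 when Apc null A was left out and at 2.08 when Apc null B was. Plaur was at -1.34 when either Gata6 null/Apc null A or Apc null B was left out, and at -0.27 when either of the other 2 arrays was. Leaving out 1 array also mixes the batch step into the genotype difference, and for Plaur that step was -1.07 (batch B minus batch A) in both genotypes. Within batches A and B, Plaur differed by -0.81 and -0.80, Hbegf by -1.48 and -0.81, and Fn1 by 1.68 and 0.82.

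Of 21 MYC target genes tested, 19 had a negative difference, beside 6632 of all 11874 genes tested. The median was -0.24 (batch A, -0.19, and batch B, -0.33), against -0.03 over all genes. With the batch as a block 1 of the 21 passed, a share below the 6.88% of all genes. It was Tfrc, the transferrin receptor, at 9.57 and 9.38 in the Gata6 null/Apc null arrays, against 10.28 and 9.84 in the Apc null arrays (-0.58, SE 0.21, adjusted p = 0.565, with the block 0.0294). Its value was -0.36 when Apc null A was left out, and within the batches Tfrc differed by -0.70 (A) and -0.45 (B). Ccnd2, a G1 cyclin, differed by -0.30 (adjusted p = 0.580, and 0.0534 with the batch as a block). The MYC network factors had a median of -0.01 over 12 tested. By p they were led by Mxd4, a repressor of the Mad family, with 0.54 (adjusted p = 0.699) and Mlxip with -0.47 (adjusted p = 0.735).

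Over 11 other KLF genes tested, which include Klf2, Klf4 and Klf10 of the immediate early list, the median was -0.01 and none passed in either fit. Klf13 differed by 0.54 (adjusted p = 0.727) and Klf12 by 0.50 (adjusted p = 1.00). Klf13 was at 0.34 when Apc null B was left out. Klf12 was at 0.0068 when Gata6 null/Apc null A was left out and at 1.00 when Gata6 null/Apc null B was, so 1 array carried its difference. Among 12 other ATF factors and stress targets, the median was -0.23 and 2 of the 12 passed with the batch as a block, beside the 6.88% of all genes. Trib3, a pseudokinase induced by ATF4 and CHOP, had a difference of -1.70 (SE 0.48, adjusted p = 0.387, with the block 0.00542), which batch A gave as -1.71 and batch B as -1.70. Chac1, a glutathione-degrading enzyme of the same response, had a difference of -1.52 (SE 0.65, adjusted p = 0.715, with the block 0.0227). It was at -0.67 when Gata6 null/Apc null A was left out and at -2.36 when Gata6 null/Apc null B was. Within the batches Chac1 differed by -1.94 (A) and -1.09 (B).

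**Figure D4:**
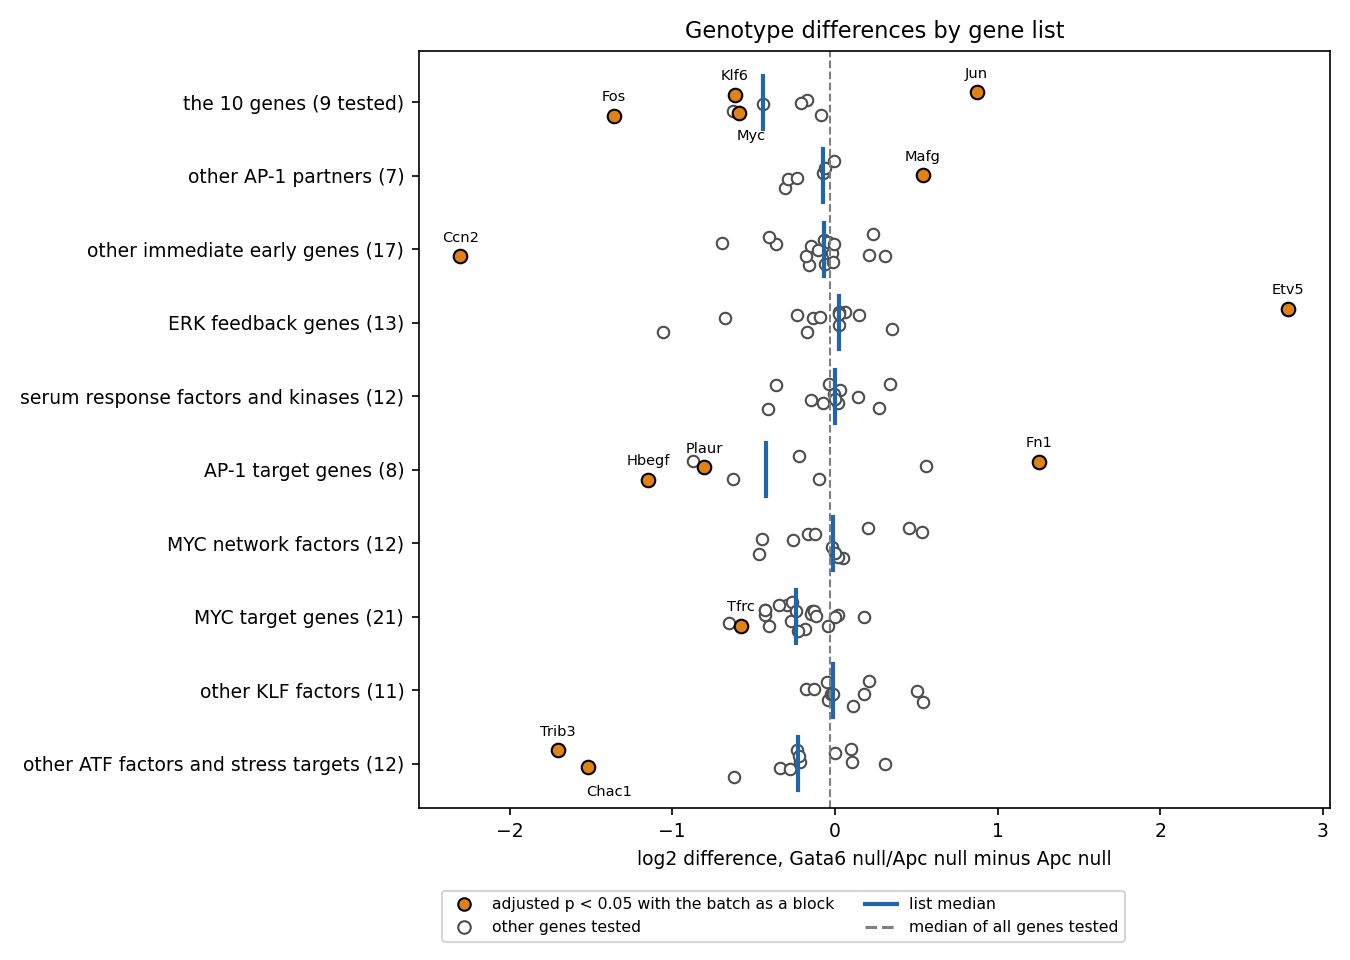
Log2 difference, Gata6 null/Apc null minus Apc null, of each gene tested in the 10-gene set and in 9 surrounding lists, with list medians as blue bars, the median of all genes dashed, and genes with an adjusted p under 0.05 with the batch as a block in orange. The set has a median of -0.44, and Etv5 (2.79) and Ccn2 (-2.30) are the extremes of the surrounding lists.

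Jun had the smallest p of the set with genotype only, so the genes whose values over the 4 arrays ran most like its own were looked up, each gene being centred on its mean. The nearest of the genes tested were Emid1, Ift80 and Serpini1, with root mean square distances of 0.02, 0.04 and 0.05 log2 units. Emid1 read 5.74 and 5.86 in the Gata6 null/Apc null arrays, against 5.03 and 4.87 in the Apc null arrays. Over 4 arrays such a likeness describes these values and says nothing of shared control.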

How the data were processed

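Expression was measured on 4 Affymetrix arrays. The deposited table holds log2 values, 1 per probe set, from RMA (affy), per the submitters' processing notes, which name no versions. RMA normalizes across arrays and compresses low values, and having 4 arrays limits the precision. Array medians ran from 4.91 to 5.04 log2 units. Of 45141 probe sets, 104 controls were left out. The platform annotation gave the gene names, with 28898 probe sets naming 1 gene, 551 several and 15588 none, and 0 symbols changed on a check by Entrez identifier. No per-sample column was left unused.

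For each of 17097 genes the probe set of highest mean was used, and genes under the 40th percentile (4.45) were left out. The fit was limma 3.58.1 under R 4.3.3 (eBayes with a trend, genotype as the single term, two-sided), with Benjamini-Hochberg adjustment over all genes and a threshold of 0.05. Every adjusted p is from limma. The fit has 2 residual degrees of freedom and a prior of 2.83, and with the batch as a block 1 and 4.99. All probe sets were fitted likewise, unfiltered. Both fits were run on simulated data with known changes added. The simulation for the genotype-only fit held no batch difference, unlike these data, and no result here rests on it.

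The pairing comes from the batch letter in the labels. The batch differences of the 2 genotypes correlated at 0.675 across genes. The labels call the samples biological replicates without naming separate mice, so p-values measure the spread between these samples, which may be technical. The 10 genes and the lists were chosen with earlier results of these data known, and lists are given by counts and medians, without a set test. Named besides the 10 genes were up to 4 genes per list past the threshold, or the 2 with the smallest p. The 3 genes most like the gene with the smallest p were named too, leaving out predicted and clone names. Fosl2 was named as a Fos gene outside the set. Promoter windows came from RefSeq (GRCm38.p6) and were searched on both strands. The alternatives were the block, 2 filters, the mean of probe sets, shared-sequence probe sets left out, arrays centred on their medians, no trend, and each array left out.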

Additional observations from a re-analysis of the deposited data

Results flagged for a closer look

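Junb and Atf3 stood out because their genotype differences had opposite signs in the batches. Junb had -0.44 within batch A and 0.10 within batch B, so that of batch B was higher by 0.54. Atf3 had 0.01 within batch A and -0.43 within batch B, a change of -0.45. Each value rests on 1 array of each genotype, and the difference between batches was not tested.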

How the results depend on the processing

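The replicate block, with the batch letter as a paired term, changed the counts most. The number of the 10 genes called was 4 with it, against 0, that of all genes called 817, against 77, and that of genes called in the surrounding lists 9, against 0. The signs of the 9 genes and of the 15 probe sets are the same with it by construction. Under every other alternative 0 of the 10 genes were called, including no filter, the 60th percentile filter, mean probe sets, probe sets ending in _x_at or _s_at left out, median-centred arrays, no trend and each array left out. With arrays centred on their medians 128 genes were called, 1 of them in the surrounding lists (Etv5, adjusted p = 0.0305). Without 1 array the count over all genes ran from 33 (Apc null A left out) to 130 (Gata6 null/Apc null A left out), and was 48 with Apc null B left out. Among the 15 probe sets, directions turned for Junb and the dim Jund probe set when Gata6 null/Apc null A was left out. Without 1 array Junb ran from -0.58 to 0.24, and the dim Jund probe set from -0.31 to 0.0107. The filter and scaling alternatives, added for the batch comparison after seeing the data, left 0 of the 10 genes called between batches. With 2 arrays a group and values compressed near the floor, small differences of Fosb and the dim Fosl1 probe set could not be detected.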
